A study of Mus musculus with 4 samples.

Results

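The genes described here encode glutathione and antioxidant enzymes of the mouse. These are glutathione S-transferases, glutathione peroxidases, peroxiredoxins, thioredoxins and their reductases, an enzyme of glutathione synthesis, superoxide dismutases, catalase, quinone reductases and heme oxygenases. The genes were picked out by a rule on gene symbols, and 52 of the 55291 genes counted matched. The rule was chosen with earlier results of these data known. RNA of tissue labelled as mouse pancreas was sequenced in 4 libraries, and reads were counted per gene. Of these, 2 libraries were labelled Pdx1-Cre+, poh1f/f, with both copies of poh1 floxed, and 2 were labelled Pdx1-Cre+, poh1f/+, with 1 copy floxed, which the series used as controls. The mice of both groups thus carried the recombinase, whose Pdx1 promoter acts in the embryonic precursors from which pancreatic acinar, duct and islet cells arise. The labels give no age or sex and do not tie libraries to individual animals, so the p-values reflect only how these samples varied, and that variation may be technical.

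Superoxide dismutases turn superoxide into hydrogen peroxide, and catalase, glutathione peroxidases and peroxiredoxins remove the peroxide. Glutathione and thioredoxin supply the electrons for the peroxidases and peroxiredoxins and are reduced again at the cost of NADPH. Glutathione S-transferases (GSTs) couple glutathione to reactive compounds, and many genes of both systems are targets of the transcription factor Nrf2 (Nfe2l2), which the repressor Keap1 sends to the proteasome. Poh1, now named Psmd14, is a deubiquitinase of the proteasome lid.

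Total counts per library were between 22875618 and 27849730. Values are CPM, read counts divided by the TMM-scaled size of each library (1 count stands for 0.0342 to 0.0455 CPM), and libraries are always listed as replicate 1 and then replicate 2. Psmd14 itself gave no fall in RNA in the libraries labelled poh1f/f, at 65.9 and 65.2 CPM, against 61.6 and 52.9 CPM in those labelled poh1f/+ (log2 fold change 0.20 ± 0.11 SE, edgeR adjusted p = 0.259), so every direction below is one between labels. Markers of the labelled tissue were low in the poh1f/f-labelled libraries: 12 acinar enzyme genes summed to 214 and 676 CPM in the poh1f/f-labelled libraries, with Amy2a5 at 0 counts in both, and to 12650 and 2658 CPM in the poh1f/+-labelled ones. Other cell markers moved with the labels as well. White adipocyte markers summed to 5747 and 4870 CPM against 766 and 1304 CPM, with 9 of 10 called higher. Lymphocyte markers summed to 6141 and 2695 CPM against 753 and 591 CPM, with 11 of 12 called higher. Fibroblast markers summed to 11484 and 9822 CPM against 26696 and 31239 CPM, with 6 of 10 called lower, and duct markers to 533 and 657 CPM against 2417 and 1974 CPM, with 9 of 10 called lower. Islet markers summed to 460 and 176 CPM against 1862 and 1077 CPM, with 5 of 10 called lower. Enterocyte markers were high in poh1f/f replicate 2 alone, at 661 CPM, against 6.41 CPM in replicate 1 and 20.0 and 25.1 CPM in the poh1f/+-labelled libraries. In bulk RNA, fewer cells of a type and less RNA per cell cannot be told apart. A difference in the tissue sampled cannot be told apart from one of genotype in these libraries, which bears on every fold change below, and the part of these cell mixtures in the results was not tested.

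Of the 52 genes, 46 passed the filter on low counts and were tested. In the poh1f/f-labelled libraries 6 rose (Gstp3, Gstz1, Cat, Gstm1, Sod2 and Prdx3), 4 fell (Gpx7, Gpx8, Prdx2 and Prdx4), and 36 did not pass (edgeR quasi-likelihood test, adjusted p under 0.05 over all 19134 genes tested). That was 13.0% higher and 8.7% lower, against 12.1% and 9.95% of all genes tested, so with this test the share called was near the background in both directions. With DESeq2, 38.0% of the 50 members with an adjusted p were called (10 higher and 9 lower), against 25.0% of all genes. The median log2 fold change of the 46 genes was −0.10 (quartiles −0.44 and 0.38), and that of all genes was 0.00 (quartiles −0.37 and 0.45). The libraries of the groups did not overlap for 34 of the 46 genes, 14 of them higher and 20 lower, where 68.1% of all genes tested did not overlap.

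**Figure D1:**
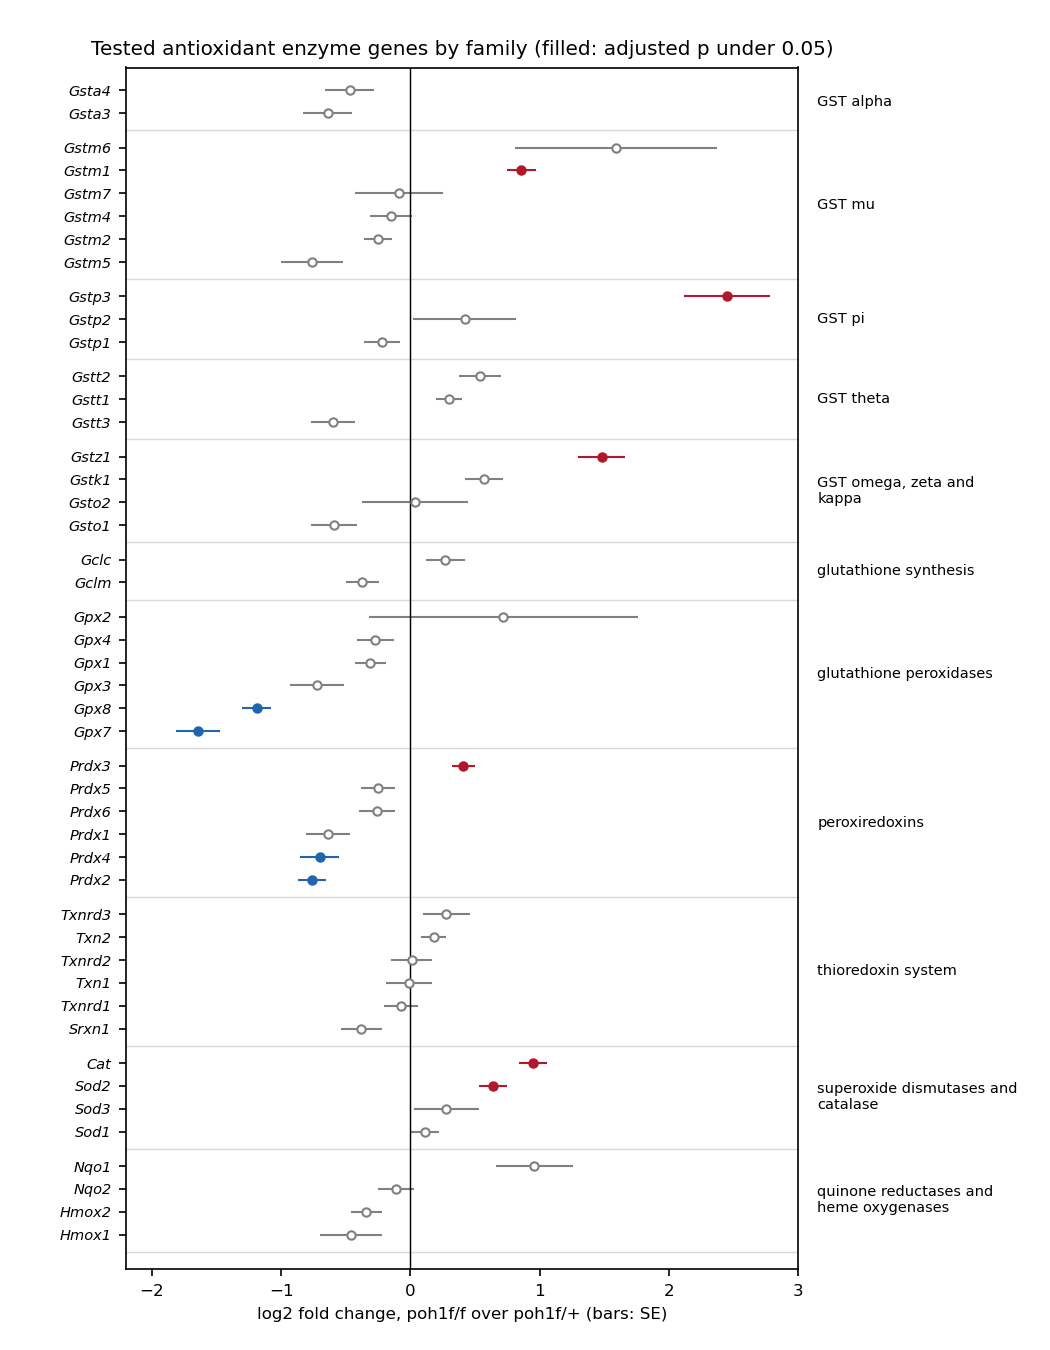
Log2 fold change (horizontal axis, poh1f/f over poh1f/+) of each tested gene, by family, with bars for the SE (n = 2 libraries per group). Filled points are the 6 genes called higher and the 4 called lower, and open points did not pass; Gpx2 and Gstm6 have the widest bars.

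The glutathione peroxidases held the strongest falls among the genes called. Summed over the 8 genes, they were at 1254 and 1181 CPM in the poh1f/f-labelled libraries and at 2050 and 1597 CPM in the poh1f/+-labelled ones, a ratio of 0.668. Most of each sum came from Gpx3, which did not pass and is described below. Gpx7 and Gpx8 encode peroxidases of the endoplasmic reticulum that can use peroxide to form disulfide bonds in secreted proteins. Gpx7 (GRCm38 chromosome 4, 108400390 to 108406961) had 16.6 and 13.1 CPM in the poh1f/f-labelled libraries, against 49.6 and 42.8 CPM in the poh1f/+-labelled ones. It was 3.11-fold lower (log2 fold change −1.64 ± 0.17 SE, edgeR adjusted p = 0.00652). Gpx8 (chromosome 13, 113042753 to 113046410) had 39.0 and 37.5 CPM in the poh1f/f-labelled libraries, against 93.6 and 80.9 CPM in the poh1f/+-labelled ones. It was 2.28-fold lower (−1.19 ± 0.11, edgeR adjusted p = 0.00516). For both genes the replicates lay close together and the groups far apart. The fibroblast, duct, acinar and islet markers given above were lower in the same libraries, and 8 of 10 macrophage markers were called lower. The Gpx8 call held without any single library, and so did that of Prdx2 below. The Gpx7 call was lost without poh1f/+ replicate 1 (edgeR adjusted p = 0.0502), with a log2 fold change of −1.53.

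The other glutathione peroxidases did not pass. Gpx3, the secreted plasma peroxidase, was the most abundant gene of all 46 per kilobase of exon, at 491 CPM per kb over the 4 libraries, followed by the cytosolic Gpx1 at 213 CPM per kb. Gpx3 had 722 and 619 CPM in the poh1f/f-labelled libraries, against 1286 and 932 CPM in the poh1f/+-labelled ones (−0.72 ± 0.21, edgeR adjusted p = 0.0641). Its groups did not overlap, and it passed with DESeq2 (adjusted p = 0.00224) and without poh1f/+ replicate 2 (edgeR adjusted p = 0.0413). Gpx1 had a log2 fold change of −0.31 ± 0.12 and Gpx4, which removes lipid peroxides from membranes, one of −0.27 ± 0.14 (edgeR adjusted p = 0.137 and 0.237). Of the Gpx4 transcript, 55.3% of all stretches of 75 bases also occurred in transcripts of other genes, mainly the pseudogene Gpx4-ps2, so its count is uncertain. Gpx5 and Gpx6 had 28 counts or fewer in every library and were not tested in the main edgeR test. Of the 40 counts of Gpx5, 28 (70.0%) came from poh1f/+ replicate 2.

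The peroxiredoxins were at 767 and 804 summed CPM in the poh1f/f-labelled libraries and at 1172 and 968 CPM in the poh1f/+-labelled ones, a ratio of 0.734, but 1 of the 6 genes rose. The largest part of each sum came from Prdx1, which did not pass and is described below. Prdx4, the peroxiredoxin of the secretory pathway (chromosome X, 155323918 to 155340754), had 42.4 and 39.2 CPM in the poh1f/f-labelled libraries, against 74.4 and 58.4 CPM in the poh1f/+-labelled ones. It was 1.63-fold lower (−0.70 ± 0.15, edgeR adjusted p = 0.0304), a call that was lost without poh1f/+ replicate 1 (−0.52, edgeR adjusted p = 0.0843). Prdx2, a cytosolic peroxiredoxin abundant in red blood cells (chromosome 8, 84969587 to 84974834), had 87.4 and 88.4 CPM in the poh1f/f-labelled libraries, against 160 and 139 CPM in the poh1f/+-labelled ones. It was 1.69-fold lower (−0.76 ± 0.11, edgeR adjusted p = 0.0131). The 9 erythroid markers summed to 169 and 394 CPM in the poh1f/f-labelled libraries and to 30.5 and 128 CPM in the poh1f/+-labelled ones, none of the 6 tested passed, and their part in the Prdx2 value was not tested.

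Prdx3, the peroxiredoxin of the mitochondrial matrix, went the other way. The gene (chromosome 19, 60864051 to 60874556) had 80.2 and 79.7 CPM in the poh1f/f-labelled libraries, against 61.2 and 58.8 CPM in the poh1f/+-labelled ones. It was 1.33-fold higher (0.41 ± 0.09, edgeR adjusted p = 0.0319). This small difference was called with all 4 libraries and lost when any 1 of them was left out, with log2 fold changes of 0.39 to 0.44 and edgeR adjusted p of 0.0654 to 0.173. Prdx1, a cytosolic peroxiredoxin and the most abundant of the family per kilobase (124 CPM per kb), had 280 and 312 CPM in the poh1f/f-labelled libraries, against 515 and 405 CPM in the poh1f/+-labelled ones. Its groups did not overlap, and it lay just outside the threshold (−0.64 ± 0.17, edgeR adjusted p = 0.0517; limma-voom adjusted p = 0.0452). Prdx5 (−0.25 ± 0.13) and Prdx6 (−0.26 ± 0.14) did not pass.

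**Figure D2:**
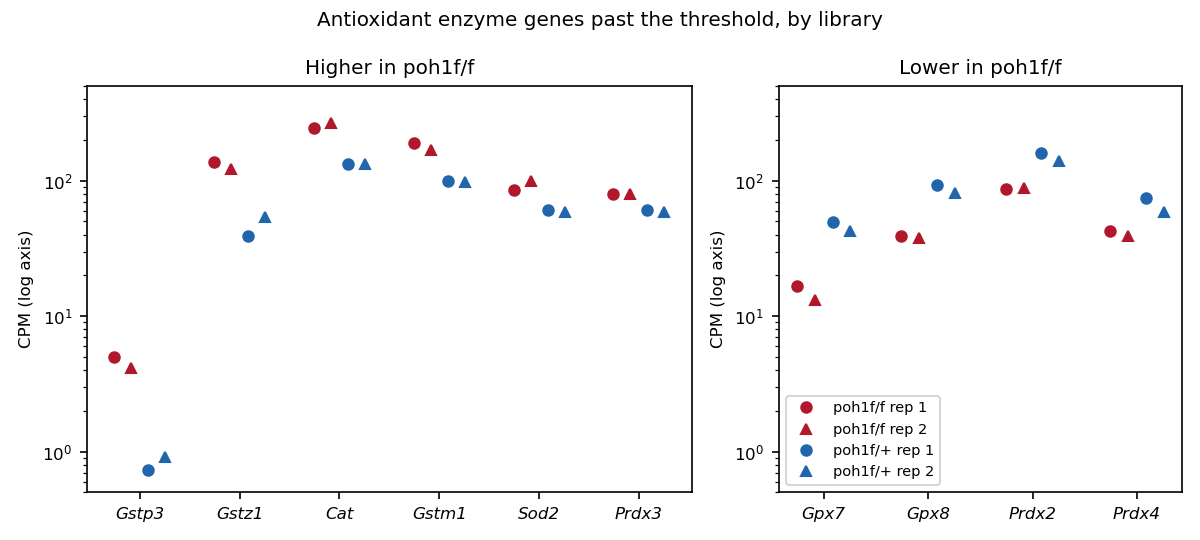
CPM on a log axis in each of the 4 libraries (circles, replicate 1; triangles, replicate 2) for the 6 genes called higher and the 4 called lower. In each gene both poh1f/f points lie on the same side of both poh1f/+ points, from Gstp3 (4.98 and 4.11 CPM against 0.728 and 0.92 CPM) to Prdx3 (80.2 and 79.7 CPM against 61.2 and 58.8 CPM).

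Superoxide dismutases and catalase were higher as a group, at 668 and 654 summed CPM in the poh1f/f-labelled libraries and 463 and 471 CPM in the poh1f/+-labelled ones, a ratio of 1.42. Catalase, the peroxide-splitting enzyme of peroxisomes, accounted for most of it. Cat (chromosome 2, 103453849 to 103485160) had 246 and 268 CPM in the poh1f/f-labelled libraries, against 133 and 132 CPM in the poh1f/+-labelled ones. It was 1.94-fold higher (0.95 ± 0.11, edgeR adjusted p = 0.00785), and the call held without any single library. Sod2, the manganese enzyme of mitochondria (chromosome 17, 13006846 to 13040063), had 85.8 and 98.9 CPM in the poh1f/f-labelled libraries, against 60.6 and 58.3 CPM in the poh1f/+-labelled ones. It was 1.55-fold higher (0.64 ± 0.11, edgeR adjusted p = 0.0189), and its call was lost without poh1f/+ replicate 1 (adjusted p = 0.0843), poh1f/+ replicate 2 (0.0721) or poh1f/f replicate 2 (0.0694). The cytosolic copper and zinc enzyme Sod1 (0.11 ± 0.11, 95% interval −0.17 to 0.40) and the extracellular Sod3 (0.28 ± 0.25, 95% interval −0.36 to 0.92) did not pass. Sod3 had 155 and 101 CPM in the poh1f/f-labelled libraries and 90.0 and 121 CPM in the poh1f/+-labelled ones, so that its groups overlapped. White adipocyte markers rose in the libraries where Cat and Sod2 were higher, with a median log2 fold change of 2.81 over the 10 tested. Lymphocyte markers (median 4.28 over 12 tested) and brown adipocyte markers (1.44 over 7 tested) were higher there as well. The part of each in these values was not tested.

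In the main edgeR test (TMM scaling, group only), the glutathione S-transferases showed 3 rises (16.7%) and 0 falls among 18 genes tested in 5 families. In that test 12.1% of all genes tested rose and 9.95% fell. With DESeq2, Gsta3, Gstm5 and Gsto1 were called lower, and Gstk1, Gstm3 and Gstt2 were called higher beside the 3 edgeR rises. Gstz1, the zeta-class enzyme of tyrosine breakdown, also called maleylacetoacetate isomerase (chromosome 12, 87147165 to 87164723), had 138 and 122 CPM in the poh1f/f-labelled libraries, against 39.2 and 54.1 CPM in the poh1f/+-labelled ones. It was 2.79-fold higher (1.48 ± 0.18, edgeR adjusted p = 0.00867), and the call held without any single library. Gstm1, a cytosolic enzyme of the mu class (chromosome 3, 108012255 to 108017973), had 190 and 168 CPM in the poh1f/f-labelled libraries, against 99.2 and 97.7 CPM in the poh1f/+-labelled ones. It was 1.82-fold higher (0.86 ± 0.11, edgeR adjusted p = 0.00962). Without poh1f/+ replicate 1 the value was 0.87 and the adjusted p 0.0504. Gstp3, of the pi class (chromosome 19, 4057477 to 4059569), was a low gene with 4.98 and 4.11 CPM in the poh1f/f-labelled libraries, against 0.728 and 0.92 CPM in the poh1f/+-labelled ones. It was 5.48-fold higher (2.45 ± 0.33, edgeR adjusted p = 0.0105; 2.30 and 0.0652 without poh1f/+ replicate 1).

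The tested neighbours in the same gene clusters did not pass in the main edgeR test. Beside Gstm1 on chromosome 3, Gstm2 had 68.6 and 61.3 CPM in the poh1f/f-labelled libraries and 80.9 and 73.8 CPM in the poh1f/+-labelled ones (−0.25 ± 0.11), and Gstm5 had 15.5 and 11.1 CPM against 25.7 and 19.3 CPM (−0.76 ± 0.24); neither passed (edgeR adjusted p = 0.157 and 0.0812). Gstm5 did pass with DESeq2 (adjusted p = 0.0324), with the replicate block (edgeR adjusted p = 0.0456) and without poh1f/f replicate 1 (−1.02, edgeR adjusted p = 0.0143). Beside Gstp3 on chromosome 19, Gstp1, the abundant pi-class gene, had 77.9 and 73.2 CPM against 99.2 and 77.3 CPM (−0.22 ± 0.14, edgeR adjusted p = 0.311). The difference between neighbours was not itself tested. Reads of such copies can be misassigned: 57.7% of the 75-base stretches of Gstp1 and 68.2% of those of Gstp2 occur in each other or in a pseudogene, 14.8% of those of Gstm1 occur in Gstm3 or 2 pseudogenes, and 0 of those of Gstp3 occur in another gene. Among the remaining GSTs, Gsto1, the most abundant of the omega, zeta and kappa classes per kilobase, had 53.2 and 71.0 CPM against 102 and 85.3 CPM (−0.59 ± 0.18, edgeR adjusted p = 0.0693). Gsta4, which handles lipid aldehydes, had 23.2 and 16.9 CPM against 26.6 and 29.0 CPM (−0.47 ± 0.19, edgeR adjusted p = 0.14). Gstt1 had 53.8 and 52.9 CPM against 44.8 and 41.5 CPM (0.30 ± 0.10, edgeR adjusted p = 0.0931). In all 3 the groups did not overlap, but none passed in the main edgeR test. Gsto1 was called lower with DESeq2 (adjusted p = 0.027), and Gstt1 was called higher without scaling (edgeR adjusted p = 0.0471).

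**Figure D3:**
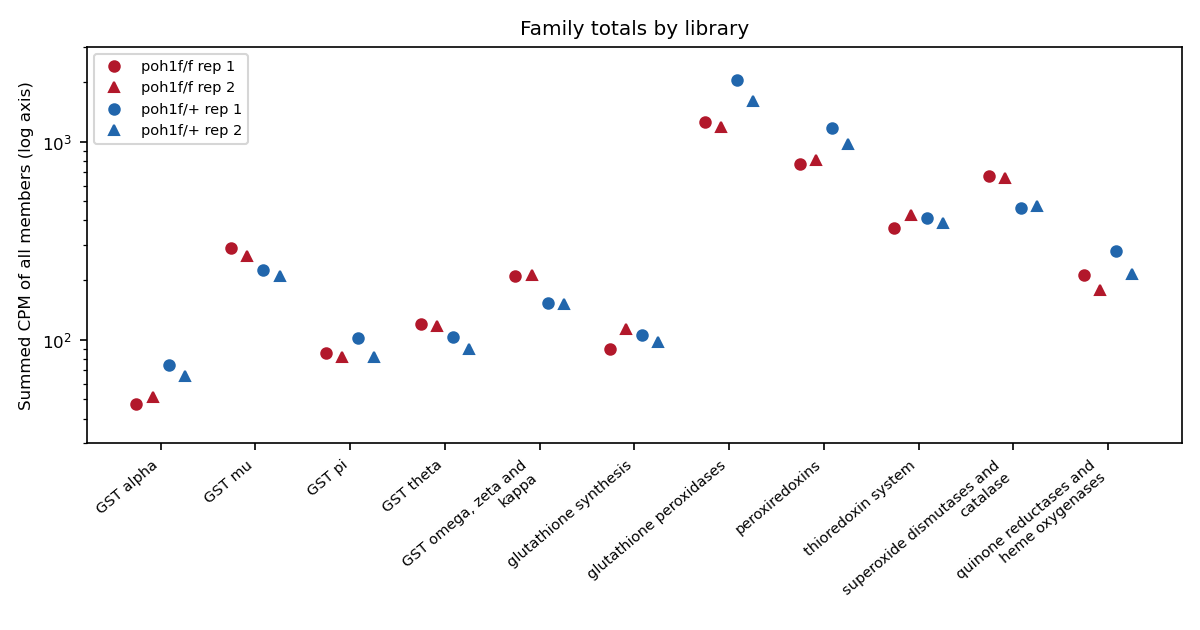
Summed CPM (log axis) of all genes of each of the 11 families in the 4 libraries (circles, replicate 1; triangles, replicate 2). Peroxidases and peroxiredoxins are lower in both poh1f/f-labelled libraries, dismutases with catalase are higher, and glutathione synthesis, thioredoxin and pi-class genes overlap.

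A few of these genes were high in 1 library only. Gpx2, the glutathione peroxidase of gut epithelium, had 5.59 CPM in poh1f/f replicate 1 and 72.0 CPM in poh1f/f replicate 2, against 25.0 and 22.1 CPM in the poh1f/+-labelled libraries. With all libraries it did not pass (0.72 ± 1.04, edgeR adjusted p = 0.651). Without poh1f/f replicate 2 it was called lower (−2.07, edgeR adjusted p = 4.83e-05), and without poh1f/f replicate 1 it was called higher (1.61, edgeR adjusted p = 3.28e-05), so its direction rested on which library was kept. The lone library is assumed there to vary like the other group. Gstm3 had 167 counts in poh1f/f replicate 2 and 3 in replicate 1, against 4 and 5 counts in the poh1f/+-labelled libraries, so that 93.3% of its counts came from 1 library (exact 95% binomial interval 88.6% to 96.5%, counting error only). Gsta1 had 121 counts in poh1f/f replicate 2 and 3 in replicate 1, against 4 and 8 counts, and Gsta2 had 15 counts there and 0 in the other 3 libraries. Gsta1 and Gsta2 share 86.3% and 46.9% of their 75-base stretches with other genes, so reads of the pair are uncertain. Gstm6 had 3.22 CPM in poh1f/f replicate 2 and 0.716 CPM in replicate 1, against 0.546 and 0.753 CPM in the poh1f/+-labelled libraries, and was called higher without poh1f/f replicate 1 (2.29, edgeR adjusted p = 0.00796), as against 0.14 without poh1f/f replicate 2. DESeq2 called Gstm3 higher. This is the library in which the enterocyte markers were high, among them the fatty acid binding protein Fabp2, at 107 CPM there and 0.0716 CPM in poh1f/f replicate 1, against 0.091 and 0.167 CPM. The part of gut RNA in these values was not tested. Gstt4, with 22 counts in all, was spread over 3 libraries.

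**Figure D4:**
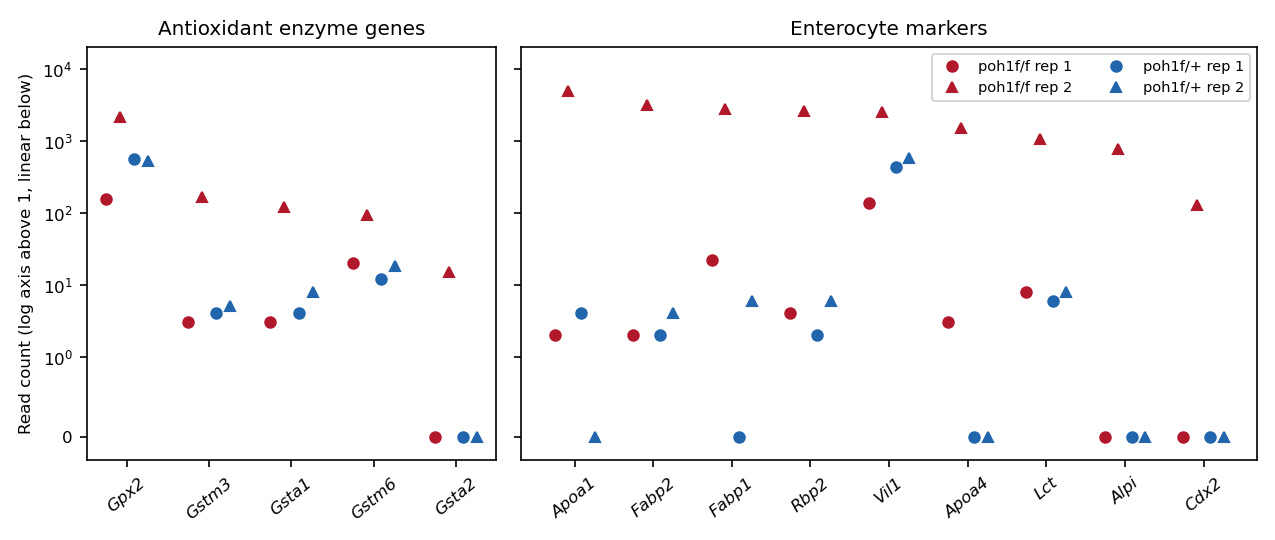
Read counts (log axis above 1, linear below) of 5 antioxidant enzyme genes and 9 enterocyte markers in the 4 libraries (circles, replicate 1; triangles, replicate 2). The triangle of poh1f/f replicate 2 is the highest point of each gene, with 167 counts for Gstm3 where the other libraries have 3 to 5.

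None of the members in the glutathione synthesis, thioredoxin, quinone and heme families passed with edgeR and all 4 libraries. Glutathione synthetase Gss, which the symbol rule left out, is described below. Gclc, the catalytic subunit that sets the rate of glutathione synthesis, had 56.0 and 73.3 CPM in the poh1f/f-labelled libraries, against 55.9 and 51.7 CPM in the poh1f/+-labelled ones (0.27 ± 0.15, edgeR adjusted p = 0.267). Gclm, its modifier subunit, had 34.2 and 39.8 CPM against 50.3 and 45.7 CPM (−0.37 ± 0.13, edgeR adjusted p = 0.099). The subunits of this 1 enzyme therefore had estimates of opposite sign, neither past the threshold. Txn1, cytosolic thioredoxin, was at 111 and 140 CPM against 141 and 111 CPM (−0.01 ± 0.18, 95% interval −0.46 to 0.45), and Txnrd1, its reductase, at 109 and 124 CPM against 112 and 133 CPM (−0.07 ± 0.13, 95% interval −0.42 to 0.27). Both overlapped between groups. Srxn1, sulfiredoxin, which repairs overoxidised peroxiredoxins, had a log2 fold change of −0.38 ± 0.16 (edgeR adjusted p = 0.15). Hmox1, the inducible heme oxygenase that is abundant in macrophages, had 116 and 88.8 CPM against 170 and 111 CPM (−0.46 ± 0.24, edgeR adjusted p = 0.232), and macrophage markers were called lower in 8 of 10 cases. Nqo1, a quinone reductase and a common readout of Nrf2, was low, at 8.13 and 9.72 CPM against 3.55 and 5.61 CPM (0.96 ± 0.30, edgeR adjusted p = 0.0781), and it passed with DESeq2 (adjusted p = 0.0356). The groups of Nqo1 did not overlap, and its estimate had the opposite sign to those of Hmox1, Srxn1 and Gclm. None of these genes passed in the main edgeR test, and the groups of Hmox1 overlapped.

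The antioxidant response element that Nrf2 binds has the core letters TGACNNNGC. Of the 52 genes, 46 had RefSeq windows (GRCm38.p6), 62 in all, from 250 bases before to 50 bases after a start site. A gene could thus have more than 1 window. The core was searched on both strands of each window. It was found in 8 of these 46 genes, or 17.4%, against 14.0% of all genes with a window, and in 8 of the 40 that were tested, or 20.0%, against 16.6% of all tested genes. In the main edgeR test, all 8 were among the 30 tested genes with a window that did not pass. The 6 genes that rose and the 4 that fell held 0 matches in these windows, which says nothing about elements elsewhere. The 5 matches whose surroundings of 20 bases on each side touch no annotated exon are printed here, to show the core in its place in each promoter. Each is read along the gene's strand, with the core in capitals; where the element lies on the other strand the capitals read GCNNNGTCA.
Gclm (chr3:122245403-122245451, plus strand): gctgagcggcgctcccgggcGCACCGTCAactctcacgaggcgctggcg
Prdx1 (chr4:116685446-116685494, plus strand): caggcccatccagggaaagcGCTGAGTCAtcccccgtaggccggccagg
Txnrd1 (chr10:82859094-82859142, plus strand): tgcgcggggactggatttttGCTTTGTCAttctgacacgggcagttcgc
Gsta3 (chr1:21240444-21240492, plus strand): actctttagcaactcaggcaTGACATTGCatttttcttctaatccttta
Sod1 (chr16:90220686-90220734, plus strand): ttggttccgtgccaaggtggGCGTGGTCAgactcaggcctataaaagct
The core began 134 bases before the RefSeq start of Gclm, 133 before that of Prdx1 and 92 before that of Txnrd1. It began 121 bases before the RefSeq start of Gsta3 and 56 before that of Sod1. The Txnrd1 start used here lies inside the annotated gene, which spans 82833951 to 82897712 on chromosome 10. The log2 fold changes were −0.37 for Gclm, −0.64 for Prdx1, −0.07 for Txnrd1, −0.64 for Gsta3 and 0.11 for Sod1, and those of the other matched genes were −0.76 for Gstm5, −0.09 for Gstm7 and −0.38 for Srxn1. Of the 8 genes, none passed in the main edgeR test, but Prdx1, Gsta3 and Gstm5 were called lower with DESeq2 (adjusted p = 0.00257, 0.029 and 0.0324). Gstm5 was also called lower with the replicate block (edgeR adjusted p = 0.0456), and Prdx1 with limma-voom (adjusted p = 0.0452).

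The rest of the pathway was followed in 7 lists with 93 genes, 92 of them tested. Of these, 10 rose (10.9%) and 17 fell (18.5%), where 12.1% and 9.95% of all genes did. Among the regulators of Nrf2, 1 of 10 rose, 2 fell and 7 did not pass (median log2 fold change −0.16). Nfe2l2, the factor itself, had 160 and 149 CPM in the poh1f/f-labelled libraries, against 256 and 221 CPM in the poh1f/+-labelled ones (−0.63 ± 0.13, edgeR adjusted p = 0.0277), and its partner Mafg was also lower (−0.40 ± 0.10, edgeR adjusted p = 0.0434). Bach2, a repressor from the same family that is active in B and T cells, rose (1.49 ± 0.17, edgeR adjusted p = 0.00785), in libraries where lymphocyte markers were higher. Keap1 did not pass (0.19 ± 0.11). Of 19 other Nrf2 targets, 1 rose, the aldehyde oxidase Aox1 (1.02 ± 0.23), and 4 fell, with 14 not passing. The exporter of conjugates Abcc3 (−1.37 ± 0.12, edgeR adjusted p = 0.00402) and the prostaglandin reductase Ptgr1 (−1.18 ± 0.16, edgeR adjusted p = 0.0102) fell most clearly, and the other falls, named after their values were seen, were the metallothionein Mt1 and the ferritin light chain Ftl1.

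Supply of glutathione and its precursors gave 4 rises and 2 falls among 14 genes, against a background of 12.1% higher and 9.95% lower. The median was 0.53, and 0.10 without poh1f/f replicate 2. The cystine importer Slc7a11 had 17.3 and 24.3 CPM in the poh1f/f-labelled libraries, against 9.87 and 9.04 CPM in the poh1f/+-labelled ones (1.14 ± 0.22, edgeR adjusted p = 0.0244), and glutathione reductase Gsr had 69.1 and 93.8 CPM against 48.7 and 48.2 CPM (0.75 ± 0.16, edgeR adjusted p = 0.0337). The other rises, named after their values were seen, were Ggct and Ggt5, which take part in glutathione breakdown. Cbs, which makes the cysteine precursor cystathionine, fell to 4.69 and 4.52 CPM, against 25.9 and 10.5 CPM (−1.98 ± 0.45, edgeR adjusted p = 0.0366), and glutathione synthetase Gss fell as well (−0.55 ± 0.13, edgeR adjusted p = 0.0419). Of 8 transferase and related genes that the symbol rule left out, the microsomal Mgst2 (2.89 ± 0.42) and Mgst1 (0.67 ± 0.11) rose (edgeR adjusted p = 0.013 and 0.0184). The leukotriene and prostaglandin genes Alox5ap (−1.03 ± 0.12) and Hpgds (−1.08 ± 0.14) fell (edgeR adjusted p = 0.00785 and 0.00968). The median of the 8 genes was 0.22.

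Of 15 redox repair genes, 0 rose and 4 fell (median −0.28; background 9.95% lower). They were the sestrin Sesn1 (−0.56 ± 0.09), the thioredoxin-like Nxn (−0.51 ± 0.11) and, named after their values were seen, the methionine sulfoxide reductases Msrb1 and Msrb2. Of 12 NADPH-supplying genes 1, the NAD kinase Nadk, rose (0.60 ± 0.10, edgeR adjusted p = 0.0191) and 11 did not pass (median −0.09). Of 14 oxidant-producing genes tested, 1 rose, 3 fell and 10 did not pass (median −0.32). Rac2, an oxidase activator of blood cells, rose (1.18 ± 0.12, edgeR adjusted p = 0.00673), while the oxidase Nox4 (−0.94 ± 0.22), the maturation factor Duoxa1 (−1.54 ± 0.36) and, named after its value was seen, the phagocyte oxidase Cybb (−0.49 ± 0.12) fell (edgeR adjusted p = 0.038, 0.0409 and 0.0455). Many of these calls did not hold when a library was left out: of the 27, 4 held without poh1f/+ replicate 1 (Abcc3, Alox5ap, Hpgds and Rac2), 15 without poh1f/+ replicate 2, 16 without poh1f/f replicate 1 and 11 without poh1f/f replicate 2. The share of all genes called was 5.52%, 13.3%, 20.2% and 17.9% in the same settings. Nfe2l2 was among those lost without poh1f/+ replicate 1, poh1f/f replicate 1 or poh1f/f replicate 2.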

How the data were processed

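The authors deposited unnormalised read counts, 1 file per library with 1 whole number for each gene symbol. The submitters' processing notes name the counter featureCounts 2.0.1, the aligner STAR 2.7.6a and the build GRCm38, beside Trim Galore 0.6.6, FastQC 0.11.9 and SAMtools 1.7. Strand and multiple-alignment settings: not given in the sources used here. Groups came from the sample titles. All 52 genes and the lists were chosen with earlier results of these data known. The naming rule took genes called, those highest per kilobase in their family, those below the filter and, in each pathway list, the 2 with the smallest p in a direction; the remaining members described, such as Gpx1, Sod1 and Nqo1, were added after their values were seen. edgeR 4.0.16 in R 4.3.3 was run on the whole table with filterByExpr, TMM, the quasi-likelihood F test on group and Benjamini-Hochberg adjustment at 0.05, and was tested on simulated data. SE is the log2 fold change over the square root of F. Exon lengths and coordinates are from GENCODE M21. Alternatives were other scalings and filters, DESeq2 1.42.0, limma-voom (limma 3.58.1), a threshold of 0.01, a replicate block and leaving out each library. Intervals of log2 fold changes come from the edgeR fit; the binomial interval covers counting error only.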

Additional observations from a re-analysis of the deposited data

How the results depend on the processing

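The 6 rises and 4 falls were 10 and 9 with DESeq2, and 3 and 2 at an adjusted p under 0.01 (10.9% of members, against 5.05% of all genes). Leaving out 1 library gave 2 to 10 rises and 2 to 8 falls, or 7.84% to 31.4% of members, against 5.52% to 20.2% of all genes. With the replicate block they were 5 and 5, or 21.7% of members, against 17.7% of all genes. The replicate numbers share only a label (correlation of deviations 0.0282), and with the block Prdx3 was lost (edgeR adjusted p = 0.0683). Of 247 values of 19 named genes under 13 alternatives, 220 kept direction and side, 13 lost the call, 9 gained one and 5 changed sign, all of Txn1: 0.00 with DESeq2 size factors, 0.09 without scaling, 0.01 with factors that leave out acinar, lymphocyte, adipocyte and receptor genes, and 0.18 and 0.15 without poh1f/+ replicate 1 or poh1f/f replicate 1; over all 4 left-out libraries Txn1 ranged from −0.19 to 0.18. Members described outside the naming rule were not among the 19, and some of them changed sign. Gpx2 was at −0.17 with the replicate block and −0.20 with limma-voom (main 0.72), and Txnrd1 at 0.03 without scaling (main −0.07). With raw library totals the log2 ratio of summed CPM was 0.56 for omega, zeta and kappa GSTs (main 0.46) and 0.60 for dismutases and catalase (main 0.50). The glutathione synthesis and thioredoxin ratios then changed sign, from about 0 to 0.10 and from −0.02 to 0.08. Without scaling the median of all genes shifted by 0.099, and Gstk1, Gstt1 and Gstt2 were also called higher. That setting called 28.3% of members, against 22.8% of all genes. The NADPH list median was −0.09, and 0.00 and 0.06 without poh1f/+ replicates 1 and 2. Pathway genes numbered 1 to 10 higher and 3 to 15 lower when 1 library was left out. Psmd14 stayed uncalled under all 13 alternatives, at 0.09 to 0.31. The cause of these changes was not tested. Genes under about 1 CPM rest on few counts.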
